A study of Mus musculus with 14 samples.

Results

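The genes described here encode the enzymes that break down the branched-chain amino acids leucine, isoleucine and valine, with those that handle the ketone body 3-hydroxybutyrate. They are 30 genes, taken by symbol from a table of 33459 gene IDs, and all 30 were found. mRNA was sequenced from C57BL/6 mice aged 21 weeks kept on High Fat Diet for 8 weeks, which all groups shared. The groups were heart of FHL2-/- (KO) mice, 4 samples, heart of WT mice, 4 samples, gonadal white adipose tissue (gWAT) of KO mice, 3 samples, and gWAT of WT mice, 3 samples. FHL2 is a LIM-domain protein known as a cofactor of transcription factors that also sits in the sarcomere. The labels do not say how the allele was made, or that each sample is a separate animal, so p-values measure the spread between these samples, which may be partly technical. The question was how the levels of these genes differ between the tissues and between KO and WT mice within each tissue.

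Branched-chain amino acids lose their amino group to a transaminase, and the keto acids enter the mitochondrion and are committed to breakdown by the branched-chain keto acid dehydrogenase (BCKDH) complex, which a kinase switches off and a phosphatase switches on. Separate branches then turn leucine into acetyl-CoA and a ketone body, isoleucine into acetyl-CoA and propionyl-CoA, and valine into propionyl-CoA, which enters the tricarboxylic acid cycle as succinyl-CoA. Heart is known for oxidising ketone bodies, and differentiated adipocytes for a high capacity to break down branched-chain amino acids.

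The deposited values are raw read counts per gene. Totals were 10835092 to 13272412 counts in heart libraries and 15105019 to 16040188 in gWAT libraries, of which 48940 to 53308 and 38586 to 63474 fell on the 30 genes. Levels are given as normalised read counts (CPM) on library sizes scaled by TMM over all 14 libraries. The targeted gene Fhl2 was at 33.4 to 44.2 CPM in heart KO and 1204 to 1631 CPM in heart WT, and at 0.208 to 0.375 CPM in gWAT KO and 3.61 to 4.98 CPM in gWAT WT. All 6 cardiomyocyte markers were called higher in heart than in gWAT in both genotypes, and 11 of 12 white adipocyte markers were called lower in heart. A pair of features of the libraries touches the results. In gWAT, WT replicate 1 stood close to the KO libraries: the mean log2(CPM + 1) over the 30 genes was 5.92 to 6.02 in KO, and 5.96 in WT replicate 1 against 5.38 and 5.61 in WT replicates 3 and 4. In heart, the mean over 6 atrial markers was 9.15 and 9.19 in KO replicates 1 and 2 and 6.27 and 6.99 in KO replicates 3 and 4, and 8.84 and 7.89 in WT replicates 1 and 2 and 3.28 and 4.49 in WT replicates 3 and 4.

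**Figure D1:**
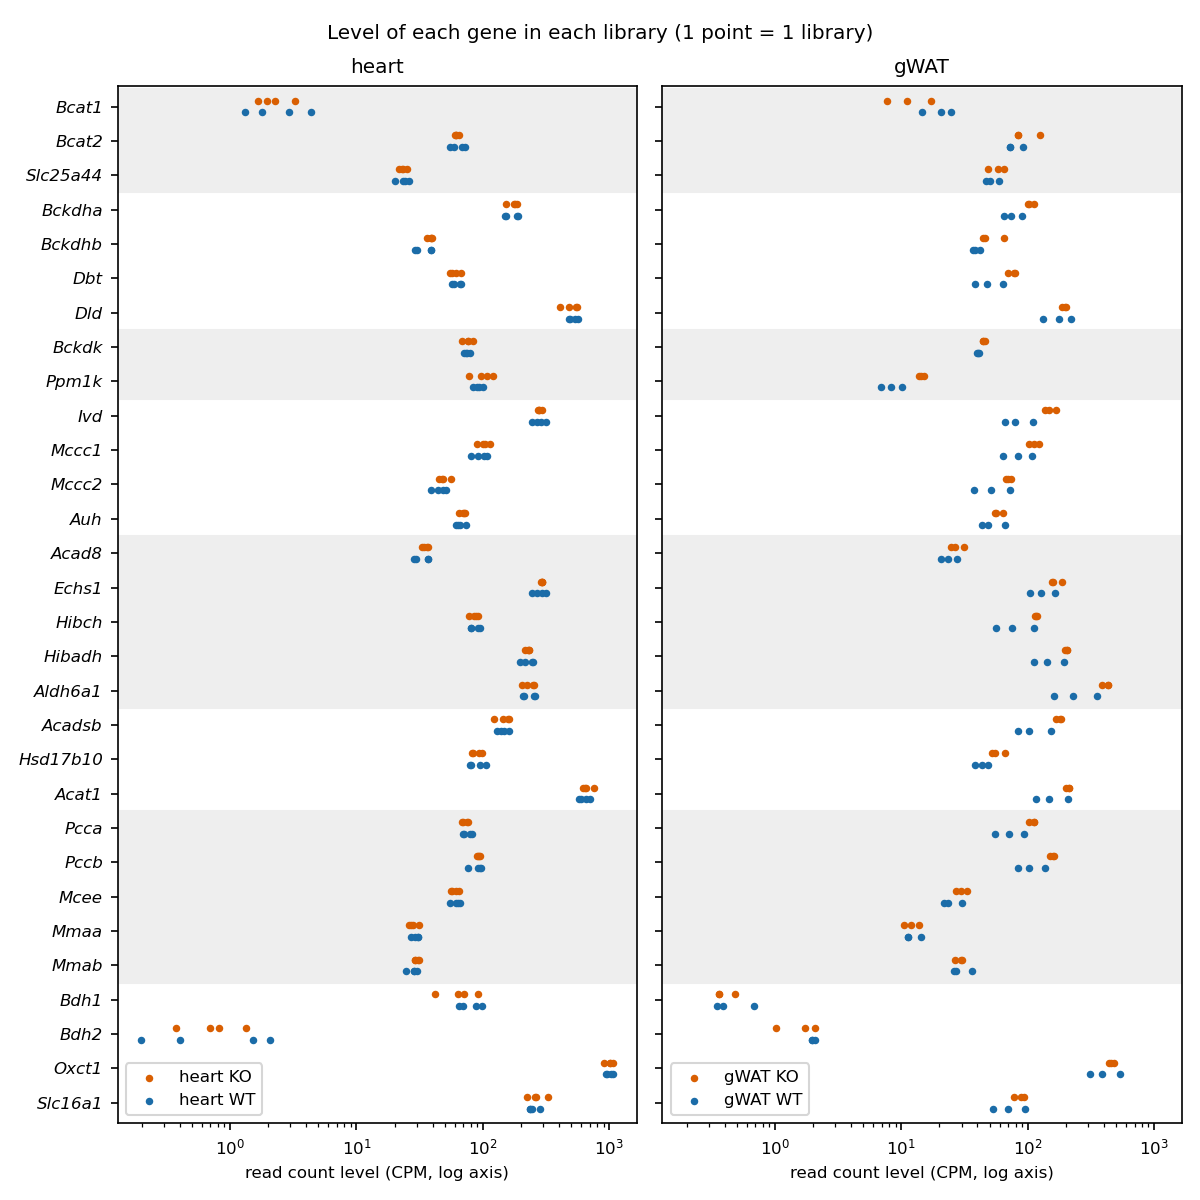
Level of each gene (CPM, log axis) in heart (left panel) and gWAT (right panel), with 1 point for each library, KO in orange above WT in blue. Grey and white bands mark the pathway steps in order. The heart groups lie on top of each other, while in gWAT many genes have all 3 KO points to the right of WT, and Bdh1 lies at 41.7 to 98.1 CPM in heart and at 0.348 to 0.687 CPM in gWAT.

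The DNA just upstream of a gene's start is shown for the 3 genes on which the comparisons below turn: Ppm1k and Ivd, which passed the test in gWAT of KO mice, and Bdh1, which differed most between the tissues. The sequences are the 250 bases before the RefSeq start (GRCm38.p6), read 5′ to 3′ on the gene's strand, with CCAAT boxes, a motif bound by NF-Y, in capitals as CCAAT or, on the other strand, ATTGG.
Ppm1k (chr6:57535488-57535737, minus strand): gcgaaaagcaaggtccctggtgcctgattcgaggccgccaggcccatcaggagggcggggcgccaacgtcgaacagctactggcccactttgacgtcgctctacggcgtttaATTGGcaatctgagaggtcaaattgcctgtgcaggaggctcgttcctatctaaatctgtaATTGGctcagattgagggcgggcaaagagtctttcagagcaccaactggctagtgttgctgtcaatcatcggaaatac
Ivd (chr2:118861744-118861993, plus strand): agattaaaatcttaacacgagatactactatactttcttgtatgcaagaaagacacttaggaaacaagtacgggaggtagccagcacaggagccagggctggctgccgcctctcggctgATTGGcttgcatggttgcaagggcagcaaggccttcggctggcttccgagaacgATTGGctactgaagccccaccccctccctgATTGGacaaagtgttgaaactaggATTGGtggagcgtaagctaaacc
Bdh1 (chr16:31422047-31422296, plus strand): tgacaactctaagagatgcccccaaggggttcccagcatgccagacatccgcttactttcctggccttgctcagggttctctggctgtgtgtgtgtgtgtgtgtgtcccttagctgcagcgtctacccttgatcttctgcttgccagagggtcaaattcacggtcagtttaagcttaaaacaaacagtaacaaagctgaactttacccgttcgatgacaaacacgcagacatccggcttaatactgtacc
The Ivd window held 4 CCAAT boxes, the Ppm1k window 2 and the Bdh1 window 0. RefSeq windows were matched for 27 of the 30 genes, all but Slc25a44, Dbt and Acat1. Of these 27, 16 (59.3%) held at least 1 CCAAT box on either strand, against 33.8% of all 32817 windows of this length. The GC box GGGGCGGGG, bound by SP and KLF factors, was in 8 of 27 windows (29.6%) and in 10.4% of all windows. The NRF1 motif, GCGC and TGCGC with any base between them, was in 3 of 27 (11.1%, against 3.73% of all windows). The motif TCAAGGTCA of ERR receptors and that of PPAR with RXR, AGGNCA repeated after a gap of 1 base, were in 0 of 27, and in 0.387% and 0.338% of all windows. Both strands were searched for each motif, and 0 matches of different motifs overlapped. A match describes these letters and does not show that a factor binds.

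Levels between genes are compared per length, as CPM per kb of summed exon. In both tissues and genotypes Oxct1, the enzyme that starts ketone body use by transferring CoA to acetoacetate, ranked first of the 30. It was at 272 ± 17.2 CPM per kb in heart WT (SD, n = 4) and at 111 ± 31.2 CPM per kb in gWAT WT (SD, n = 3). In heart WT it was followed by Acat1, the thiolase of isoleucine and acetoacetyl-CoA (168 ± 15 CPM per kb), Dld, the E3 subunit that BCKDH shares with other dehydrogenases (141 ± 10.83), and Bckdha, the E1 alpha subunit (88.9 ± 11.1). In gWAT WT the next ranks were Dld (47.9 ± 12 CPM per kb), Aldh6a1, the methylmalonate semialdehyde dehydrogenase of the valine branch (42.7 ± 16.9), and Acat1 (41.8 ± 12.1). These 3 gWAT levels lie within 1 SD of each other. Over the longest transcript Oxct1 stayed first, but Aldh6a1 (71.1) stood before Dld (69.4) and Pccb (46.5) before Acat1 (46.1) in gWAT WT, and Dld (204) before Acat1 (186) and Hsd17b10 (89.7) before Bckdha (88.9) in heart WT. In gWAT KO, Aldh6a1 was second at 71.8 ± 4.75 CPM per kb. At the low end, Bcat1, the cytosolic transaminase, was at 0.28 ± 0.147 CPM per kb in heart WT, and Bdh1, the mitochondrial 3-hydroxybutyrate dehydrogenase, at 0.122 ± 0.0475 CPM per kb in gWAT WT. Bdh2, a cytosolic dehydrogenase, was at 0.246 ± 0.21 CPM per kb in heart WT and 0.469 ± 0.0195 in gWAT WT. Subunits of 1 enzyme were not at equal levels: the ratio of Bckdha to Bckdhb, the E1 alpha and beta subunits, per kb was 4.68 ± 0.207 in heart WT and 1.84 ± 0.2 in gWAT WT, and the 2 tissues did not overlap. Over the longest transcript the ratio of their mean levels was 3.81 in heart WT and 1.51 in gWAT WT. Bckdha shares 1171 of its 1899 exonic bases with B3gnt8 on the opposite strand. The Pcca to Pccb ratio of propionyl-CoA carboxylase was 0.447 ± 0.0315 in heart WT and 0.359 ± 0.00988 in gWAT WT over summed exons, and 0.75 and 0.607 over the longest transcript.

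**Figure D2:**
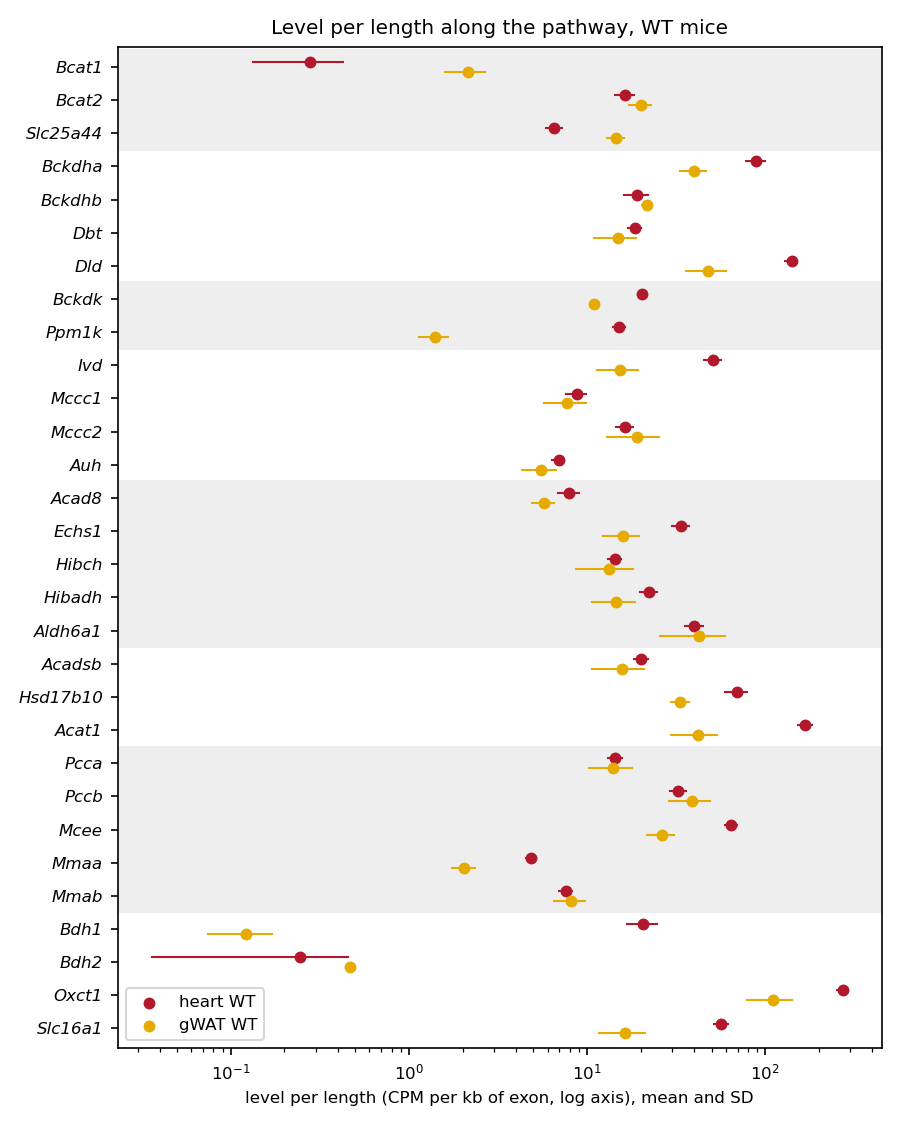
Level per length (CPM per kb of exon, log axis) of each gene in heart WT (red, n = 4) and gWAT WT (yellow, n = 3), as mean and SD, in pathway order. Oxct1 is the highest in both tissues, and the tissues lie furthest apart for Bdh1, Ppm1k and Bcat1.

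In gWAT of KO mice, Ivd and Ppm1k were higher than in WT, and no gene of the pathway was called lower. Ivd is isovaleryl-CoA dehydrogenase, the first enzyme of the leucine branch after BCKDH, and Ppm1k is the phosphatase that activates BCKDH. These 2 of 29 genes tested compare with 2.01% of all 15200 genes called higher and 3.48% called lower. Bdh1 was not tested, with 7 to 12 reads per library. Most other genes had positive values without passing: 25 of 29 log2 fold changes were above 0 (50% of all genes), and 13 were higher at an unadjusted p under 0.05 (10.4% of all genes). In 13 of the 29 all 3 KO libraries lay above all 3 WT libraries (12.4% of all genes). The median log2 fold change was 0.40, against 0.00 over all genes tested.

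Ivd (ENSMUSG00000027332, chromosome 2, 118861954 to 118882909, GRCm38) had 168, 148 and 136 CPM in the KO libraries, against 109, 65.7 and 78.9 CPM in the WT libraries. The groups did not overlap, and the highest WT library was replicate 1. The log2 fold change was 0.84 ± 0.18 (SE; edgeR quasi-likelihood test, Benjamini-Hochberg adjusted p = 0.0362). Ppm1k (ENSMUSG00000037826, chromosome 6, 57506502 to 57535468) had 14.3, 15.1 and 13.7 CPM in KO, against 10.1, 6.92 and 8.28 CPM in WT. These groups did not overlap either, with WT replicate 1 again the highest of its group. Its log2 fold change was 0.77 ± 0.15 (edgeR adjusted p = 0.0306). Ivd and Ppm1k are among the 16 of 27 genes with a matched window (59.3%) that held a CCAAT box. A link of this motif to the fold changes was not tested. Bckdk, the kinase that opposes Ppm1k, had 46.2, 44.2 and 44.4 CPM in KO and 40.8, 40.3 and 40.0 CPM in WT. Its groups did not overlap, but the value of 0.16 ± 0.09 did not pass (edgeR adjusted p = 0.326). The ratio of Ppm1k to Bckdk per kb was 0.196 ± 0.0119 in KO and 0.128 ± 0.0231 in WT (SD, n = 3 each), with KO libraries at 0.189 to 0.21 and WT libraries at 0.105 to 0.152. This ratio was not tested.

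The catalytic subunits of BCKDH had positive values that did not pass. Bckdha was at 112, 103 and 100 CPM in KO and 89.5, 64.2 and 73.5 CPM in WT (log2 fold change 0.48 ± 0.13, edgeR adjusted p = 0.0658). Dbt, the E2 core, was at 69.8, 79.8 and 78.5 CPM in KO and 64.2, 37.9 and 47.9 CPM in WT (0.61 ± 0.17, edgeR adjusted p = 0.075). In both genes all KO libraries lay above all WT libraries. Bckdhb had a log2 fold change of 0.41 ± 0.15 with groups that did not overlap, and Dld, with 185 to 202 CPM in KO and 133 to 221 CPM in WT, had 0.15 ± 0.17 with groups that did. Upstream of the complex, Bcat1 had 11.2, 17.3 and 7.64 CPM in KO and 24.7, 14.5 and 20.5 CPM in WT. It was the 1 gene with a negative value at an unadjusted p under 0.05 (12.7% of all genes), its groups overlapped, and it did not pass (−0.72 ± 0.29, edgeR adjusted p = 0.187). Bcat2, the mitochondrial transaminase (0.33 ± 0.17), and Slc25a44, the mitochondrial carrier of branched-chain amino acids (0.14 ± 0.13), had overlapping groups.

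All 12 genes of the leucine, valine and isoleucine branches had positive log2 fold changes, and Ivd was the 1 that passed. Aldh6a1 had 383, 432 and 430 CPM in KO and 353, 162 and 226 CPM in WT (0.76 ± 0.24, edgeR adjusted p = 0.107). Its KO libraries all lay above WT, with WT replicate 1 near them. Acadsb, the short branched-chain acyl-CoA dehydrogenase of isoleucine, had 167, 183 and 178 CPM in KO and 154, 83.3 and 102 CPM in WT (0.65 ± 0.20, edgeR adjusted p = 0.0928). Hsd17b10, the next dehydrogenase of that branch, had 66.6, 55.1 and 52.5 CPM in KO and 48.4, 38.3 and 43.2 CPM in WT (0.43 ± 0.12, edgeR adjusted p = 0.0855). Neither overlapped between the groups. In the valine branch Hibch, the hydrolase of 3-hydroxyisobutyryl-CoA, and Hibadh, the dehydrogenase of 3-hydroxyisobutyrate, had 0.54 ± 0.21 and 0.45 ± 0.17, while Echs1, an enoyl-CoA hydratase shared with fatty acid oxidation, had 0.36 ± 0.16 and Acad8, isobutyryl-CoA dehydrogenase, 0.21 ± 0.14. In the leucine branch Mccc1 and Mccc2, the subunits of methylcrotonyl-CoA carboxylase, had 0.41 ± 0.17 and 0.40 ± 0.20, and Auh, the hydratase after it, 0.15 ± 0.15.

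Both subunits of propionyl-CoA carboxylase had KO libraries above all WT libraries. Pcca was at 113, 103 and 112 CPM in KO and 94.1, 54.7 and 70.5 CPM in WT (0.59 ± 0.17, edgeR adjusted p = 0.0854). Pccb was at 162, 158 and 149 CPM in KO and 138, 83.6 and 102 CPM in WT (0.54 ± 0.16, edgeR adjusted p = 0.0918). The genes after this step had smaller values with overlapping groups: Mcee, methylmalonyl-CoA epimerase, had 0.26 ± 0.14, and Mmaa and Mmab, which act on the cobalamin cofactor of the mutase, had −0.02 ± 0.15 and −0.05 ± 0.14. The ketone body genes did not pass and their groups overlapped. Oxct1 had 436, 478 and 454 CPM in KO and 535, 308 and 384 CPM in WT (0.16 ± 0.18), Slc16a1, a transporter of lactate and ketone bodies, 0.26 ± 0.19, and Bdh2 −0.31 ± 0.30. Acat1 had 210, 210 and 201 CPM in KO and 206, 117 and 147 CPM in WT (0.40 ± 0.18).

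**Figure D3:**
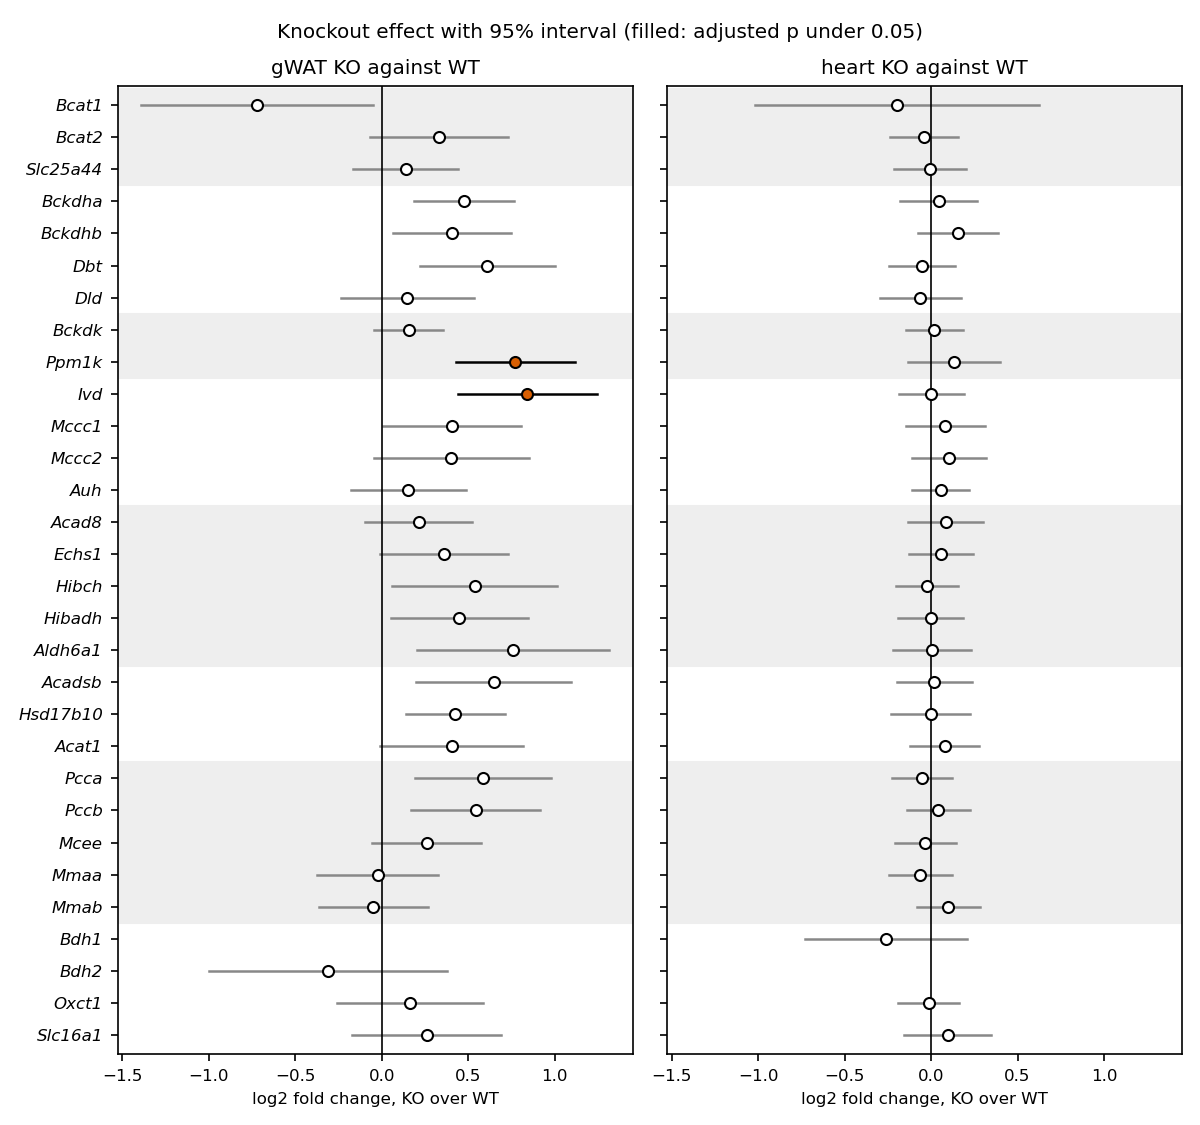
Log2 fold change of KO over WT with its 95% interval for each gene in gWAT (left panel, n = 3 each) and heart (right panel, n = 4 each). Filled points passed the test (adjusted p under 0.05, edgeR), which Ppm1k and Ivd did in gWAT, and Bdh1 in gWAT and Bdh2 in heart were not tested. In gWAT 25 of 29 points lie above 0, while in heart they lie between −0.26 and 0.16.

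Other genes of the same pathways were listed for comparison. Of 33 such genes 29 were tested in gWAT, of which 1 was called higher and 1 lower in KO, with a median of 0.06. Slc43a1, a transporter of large neutral amino acids, was at 23.04 ± 5.77 CPM in KO and 11.4 ± 1.24 CPM in WT (SD, n = 3 each; log2 fold change 1.02 ± 0.18, edgeR adjusted p = 0.0285). Slc7a5, another such transporter, was at 4.51 ± 0.503 CPM in KO and 9.87 ± 0.873 CPM in WT (−1.13 ± 0.16, edgeR adjusted p = 0.0216). In neither did the groups overlap. The other mitochondrial lists had smaller medians and no calls: 0.10 over 16 tricarboxylic acid cycle genes, 0.14 over 21 respiratory chain genes, 0.04 over 10 fatty acid oxidation genes and 0.09 over 13 genes of pyruvate dehydrogenase and its regulators. The difference between these medians and 0.40 was not tested.

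Markers of cell types moved in the same gWAT libraries. Of 10 lipid-associated macrophage markers 8 were called lower (median −2.39), with a summed level of 879 to 981 CPM in KO and 1552 to 5443 CPM in WT, and 4 of 7 macrophage markers were called lower (median −1.44, 860 to 960 CPM in KO and 1102 to 2405 CPM in WT). Of 12 white adipocyte markers 2 were called higher (median 0.49), with 29432 to 33044 CPM in KO and 20001 to 31139 CPM in WT, and 3 of 7 mesothelial markers were called higher (median 1.12, 276 to 467 CPM in KO and 102 to 225 CPM in WT). In each of these lists 0 markers were at 0 in any gWAT library. Of 4 brown adipocyte markers tested 1, Elovl3, was called lower (median −0.80), with a summed level of 7.75 to 8.93 CPM in KO and 12.1 to 13.7 CPM in WT, which did not overlap, and 1 marker at 0 in KO replicate 3. WT replicate 1 lay nearest to KO in the adipocyte list (mean log2 level 10.38 to 10.54 in KO, and 10.24, 9.48 and 9.75 in WT replicates 1, 3 and 4) and in the lipid-associated macrophage list (5.63 to 5.77 in KO, and 6.64, 8.17 and 7.85 in WT). The part of these markers in the values of the pathway was not tested. In bulk tissue, fewer cells of a type and less RNA per cell cannot be told apart.

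**Figure D4:**
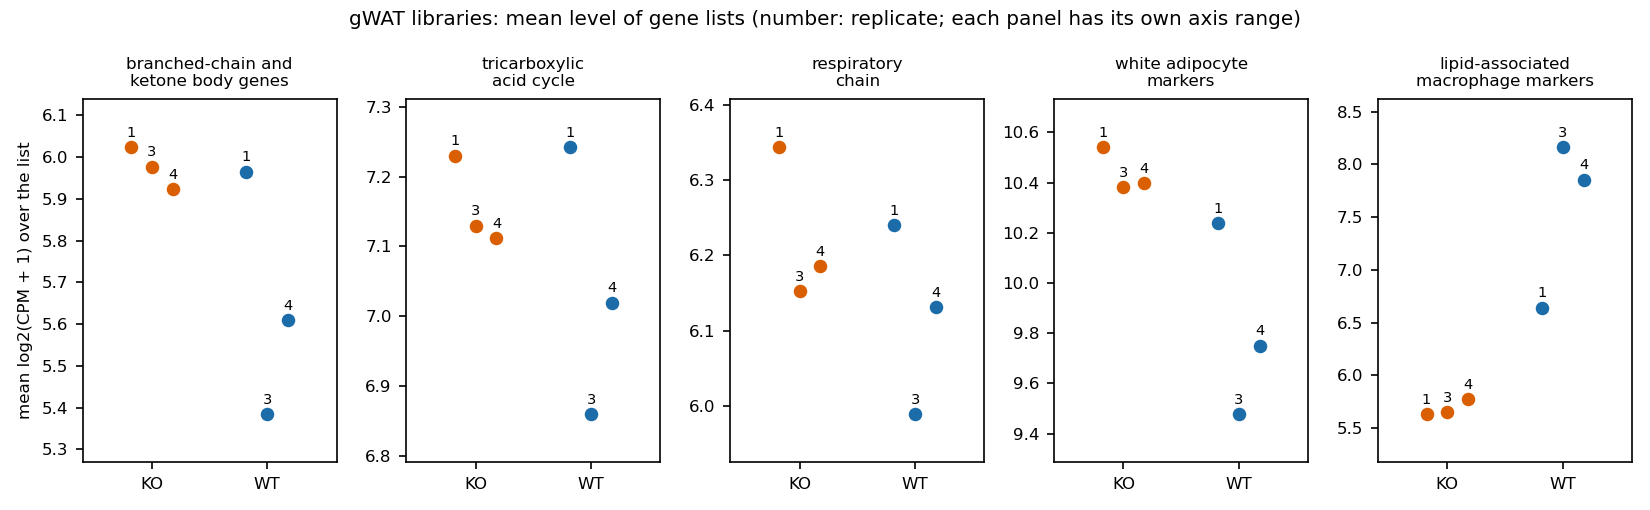
Mean log2(CPM + 1) of 5 gene lists in each gWAT library, KO in orange left of WT in blue, with the replicate number above each point and an axis range of its own in each panel. For the branched-chain and ketone body genes, WT replicate 1 lies at 5.96 among the KO libraries at 5.92 to 6.02, and in the adipocyte and lipid-associated macrophage panels it is the WT library nearest to KO.

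The gWAT calls depended on single libraries, for these genes as for the whole table. Without WT replicate 1, 16 of the 30 genes were called higher, as were 1201 of all genes (1707 lower), against 305 and 529 with all libraries, and the median was 0.50, and the log2 fold change was 1.05 for Ivd and 0.90 for Ppm1k. When any of the other 5 libraries was left out (WT replicates 3 and 4, KO replicates 1, 3 and 4), 0 genes of the pathway were called, and the adjusted p was 0.0711 to 0.165 for Ivd and 0.0666 to 0.145 for Ppm1k by edgeR. In 4 of these 5 fits 0 genes of the whole table were called, so that the calls of Slc43a1 and Slc7a5 were lost there too, and without WT replicate 3 there were 45 higher and 87 lower.

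In heart, no difference between KO and WT larger than the spread between libraries was detected at these genes. Of 29 genes tested 0 were called higher and 0 lower by edgeR, where 0% of all 14159 genes were called higher and 0.00706% lower, which is Fhl2 itself. At an unadjusted p under 0.05, 0 of the 29 were higher or lower (1.6% of all genes in each direction), and DESeq2 and limma-voom called 0. Bdh2 was not tested. Values were above 0 for 15 of 29 (49% of all genes), the groups did not overlap for 0 (1.28% of all genes higher and 1.1% lower), and the median log2 fold change was 0.00. For 27 of the 29 the 95% interval lay within −0.4 and 0.4, and the exceptions were Bcat1 and Bdh1. Ppm1k lay only just inside, with an upper limit of 0.399. Ivd had 278, 277, 273 and 292 CPM in KO and 245, 268, 290 and 316 CPM in WT. Its groups overlapped, with a log2 fold change of 0.00 (interval −0.19 to 0.19). Ppm1k had 77.2, 119, 96.0 and 109 CPM in KO and 89.6, 83.2, 92.8 and 99.6 CPM in WT. Here too the groups overlapped (0.13, interval −0.14 to 0.399).

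The most abundant genes in heart differed little. Oxct1 had 906, 1062, 1012 and 1008 CPM in KO and 941, 965, 1036 and 1079 CPM in WT (−0.01, interval −0.19 to 0.16), and Acat1 had 618 to 751 CPM in KO and 576 to 698 CPM in WT (0.08, interval −0.12 to 0.28). Bckdhb had the smallest p of the 29: it was at 36.1, 39.2, 39.1 and 39.3 CPM in KO and 30.4, 29.3, 39.1 and 39.1 CPM in WT (0.16 ± 0.11, edgeR adjusted p = 1). Its WT libraries fell apart into replicates 1 and 2, which were low, and replicates 3 and 4, the same split as in the atrial markers. The KO libraries did not follow that split. Their replicate 2 was at 39.2 CPM, beside 39.1 and 39.3 CPM in replicates 3 and 4, and replicate 1 was at 36.1 CPM. The split in WT was not particular to Bckdhb. Bckdha, Acad8, Hsd17b10 and Aldh6a1 also had WT replicates 1 and 2 below WT replicates 3 and 4, and Bdh1 had the reverse. Bdh1 varied most between libraries among the genes above 3 CPM, with 92.1, 71.4, 63.5 and 41.7 CPM in KO and 88.8, 98.1, 64.8 and 70.0 CPM in WT (−0.26 ± 0.21). With the atrial level as a covariate the median of the 29 genes was 0.09, with 0 of them called. Of all genes, 0 were called higher and 7 lower in that fit. Among the 29, 23 values were above 0, and at an unadjusted p under 0.05 by edgeR 2 were higher and 2 lower. The shares of all genes for these counts were not taken in that fit. Other pathway genes (27 tested) had 0 calls in heart as well.

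The KO effect was then compared between the tissues in 1 fit of all 14 libraries, as gWAT minus heart, which shares its libraries with the comparisons above. In the main fit, with TMM scaling, a filter on low counts and no replicate block, 0 of 30 genes were called by edgeR. Of 16014 genes, 0.362% were called higher and 0.787% lower. The difference was positive for 28 of 30 genes (49.5% of all genes), and at an unadjusted p under 0.05 it was above 0 for 11 (6.14% of all genes) and below 0 for none (9.07%). The median was 0.29. Ivd came nearest, with a KO effect of 0.84 in gWAT and 0.00 in heart and a difference of 0.83 ± 0.20 (edgeR adjusted p = 0.0549). With the replicate number within each tissue as a block, Ivd was called at 0.85 (edgeR adjusted p = 0.0361). Whether these numbers pair KO with WT samples in gWAT is not known. Ivd was also called by DESeq2 (adjusted p = 0.00633), with no filter (edgeR adjusted p = 0.00855) and on library totals (edgeR adjusted p = 0.0452). Of all genes, 223 were called higher and 446 lower by DESeq2, 163 and 370 with no filter, and 41 and 121 on library totals. Dbt had a difference of 0.66 ± 0.20 (adjusted p = 0.111), Pcca 0.63 ± 0.19 (0.119) and Ppm1k 0.64 ± 0.20 (0.132), all by edgeR. Bcat1 and Mmab were the 2 genes with a negative difference, −0.52 ± 0.51 and −0.16 ± 0.16. Without gWAT WT replicate 1, 11 genes were called, Ivd, Dbt, Pcca and Ppm1k among them, in a fit that called 493 of all genes higher and 822 lower, against 58 and 126 with all libraries. Without any other library 0 of the 30 were called.

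Between the tissues, the regulators of BCKDH and the ketone body genes were mostly higher in heart, and the genes of transamination and import were lower or not called. In WT mice 15 of 30 genes were called higher in heart than in gWAT (33.3% of 15287 genes) and 2 lower (36.1%). In KO mice, which share no library with the WT comparison, 15 were called higher in heart (35% of 15245 genes) and 11 lower (34.8%). Of these, 14 were higher and 2 lower in both genotypes. Both comparisons use the same libraries as the KO comparisons above. The median log2 fold change of heart over gWAT was 0.22 in KO and 0.41 in WT.

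Bdh1 (chromosome 16, 31422280 to 31458901) had the largest difference of the 30. It was at 41.7 to 92.1 CPM in heart KO, against 0.482, 0.363 and 0.364 CPM in gWAT KO, and at 64.8 to 98.1 CPM in heart WT, against 0.687, 0.348 and 0.389 CPM in gWAT WT. Heart was higher by 7.37 ± 0.35 in KO and 7.41 ± 0.27 in WT on the log2 scale (edgeR adjusted p = 1.05e-08 and 3.61e-08). Ppm1k was higher in heart by 2.82 ± 0.15 in KO and 3.44 ± 0.14 in WT, and its opponent Bckdk by 0.77 ± 0.09 and 0.89 ± 0.08. The Ppm1k to Bckdk ratio per kb was 0.823 ± 0.208 in heart KO and 0.196 ± 0.0119 in gWAT KO, and 0.749 ± 0.0467 in heart WT and 0.128 ± 0.0231 in gWAT WT. Oxct1 was higher in heart by 1.15 ± 0.10 in KO and 1.30 ± 0.18 in WT, Slc16a1 by 1.65 ± 0.14 and 1.79 ± 0.19, and Acat1 by 1.71 ± 0.10 and 2.01 ± 0.19. Ivd was higher in heart by 0.91 ± 0.10 in KO and 1.73 ± 0.18 in WT, Dld by 1.37 ± 0.12 and 1.56 ± 0.17, and Bckdha by 0.75 ± 0.10 and 1.16 ± 0.14. Groups did not overlap for any gene in these sentences. The share of all genes without overlap is not given for these comparisons, in which 35% of all genes in KO and 33.3% in WT were called higher in heart.

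Bcat1 and Slc25a44 were lower in heart in both genotypes. Bcat1 was at 1.67 to 3.28 CPM in heart KO, against 7.64 to 17.3 CPM in gWAT KO, and at 1.32 to 4.39 CPM in heart WT, against 14.5 to 24.7 CPM in gWAT WT (−2.36 ± 0.30 in KO and −2.90 ± 0.34 in WT). Slc25a44 was at 21.8 to 25.2 CPM in heart KO, against 48.2 to 64.9 CPM in gWAT KO, and at 20.2 to 25.96 CPM in heart WT, against 47.1 to 58.7 CPM in gWAT WT (−1.28 ± 0.11 and −1.15 ± 0.12). In KO mice 9 more genes were called lower in heart: Bcat2, Bckdhb, Dbt, Mccc2, Hibch, Aldh6a1, Acadsb, Pcca and Pccb. Acadsb passed narrowly (−0.25 ± 0.10, edgeR adjusted p = 0.0496) and lost its call without heart KO replicate 1 or 3 or gWAT KO replicate 3 or 4 (adjusted p up to 0.107). With all libraries kept, it also lost its call with RLE scaling (edgeR adjusted p = 0.0531) and with a filter of at least 10 mean counts (0.0529). The same held in 1 fit of all 14 libraries (edgeR adjusted p = 0.15). Among the others Aldh6a1 had −0.82 ± 0.10, Pccb −0.74 ± 0.08 and Bcat2 −0.65 ± 0.14. In WT mice the same 3 genes had −0.09 ± 0.23, −0.26 ± 0.16 and −0.30 ± 0.13 and did not pass. Whether the tissue difference itself differed between KO and WT is the contrast of the KO effect in gWAT minus heart given above. There 0 of the 30 genes passed in the main fit. Ivd passed with a replicate block, with DESeq2, with no filter and on library totals, and Dbt with no filter. Without gWAT WT replicate 3, 5 genes were called lower in heart in WT mice, where all genes had 5386 lower, against 5513 with all libraries. Without gWAT WT replicate 1, 20 were called higher, where all genes had 5237 higher, against 5092 with all libraries.

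Most genes of 4 other mitochondrial lists were higher in heart. All 16 tricarboxylic acid cycle genes, all 21 respiratory chain genes and all 11 fatty acid oxidation genes were called higher in both genotypes, with medians of 1.98, 2.50 and 1.45 in KO and 2.13, 2.59 and 1.71 in WT. Of 13 genes of pyruvate dehydrogenase and its regulators 12 were called higher and 1 lower in both. Medians of the leucine, valine, isoleucine and propionyl-CoA branches were 0.07, 0.18, 0.64 and 0.08 in KO and 0.26, 0.47, 1.06 and 0.04 in WT. Mitochondrially encoded genes took 28.2 to 34.5% of the counts in heart and 2.18 to 4.19% in gWAT. On library totals without scaling factors the median of all genes shifted to −0.49 in KO and −0.60 in WT. The calls were then 12 higher and 16 lower in KO, and 13 higher and 12 lower in WT, where all genes had 3177 higher and 8243 lower in KO and 2900 and 8569 in WT, and the median of the 30 genes stood 0.21 above that of all genes in KO and 0.45 above it in WT, against 0.21 and 0.44 with scaling. Auh and Acad8, called higher in KO with scaling, had negative values in KO on that scale, and so had Acad8 in WT, while those of Bdh1, Ppm1k, Oxct1, Acat1, Slc16a1, Ivd, Bcat1 and Slc25a44 kept their sign.

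**Figure D5:**
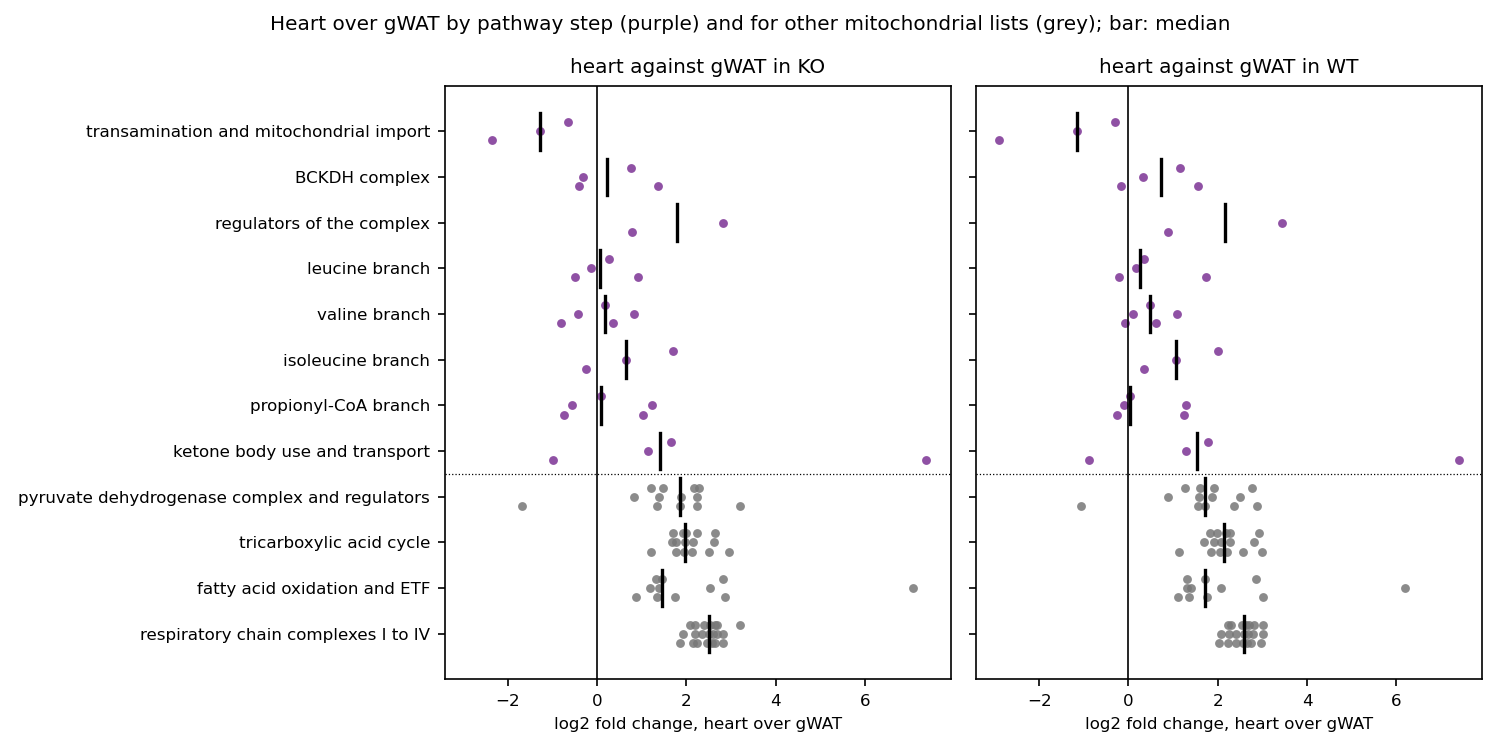
Log2 fold change of heart over gWAT in KO (left panel) and WT (right panel) for each gene by pathway step (purple) and for 4 other mitochondrial lists (grey), with a black bar at the median. The branches that follow BCKDH have medians between 0.04 and 1.06, the other lists between 1.45 and 2.59, and Bdh1 is the point at 7.37 in KO and 7.41 in WT.

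For 10 of the 30 genes an exon overlaps another annotated gene, and whether reads were counted by strand is not given. These were Bcat1, Bcat2, Bckdha, Mccc1, Echs1, Hibadh, Aldh6a1, Pcca, Bdh1 and Oxct1. Bckdha and B3gnt8, and Aldh6a1 and Bbof1, lie on opposite strands and share 1171 and 1078 exonic bases. Unless reads were counted by strand, those from the shared bases cannot be assigned to either gene. The levels of Bckdha and Aldh6a1 are therefore less certain than those of Ivd and Ppm1k.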

How the data were processed

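mRNA of 14 libraries, made with the Kapa mRNA HyperPrep kit per the labels' protocols, was deposited as raw read counts per Ensembl gene, whole numbers with no normalization by the authors. Tools listed in the submitters' processing notes, without roles, are HISAT2 2.1.0, HTSeq 0.11.0, Trimmomatic 0.32, Picard, FastQC and limma, with build mm10. For the annotation release, strand setting and filters, the sources used here say nothing. There were 0 columns without a sample, and no 2 libraries of a group were duplicates.

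The 30 genes and 14 further lists were chosen with earlier results of these data known. Each comparison was fitted over all genes with edgeR 4.0.16 in R 4.3.3 (filterByExpr by group, TMM, quasi-likelihood F test, Benjamini-Hochberg over all genes tested, threshold 0.05), for each tissue or genotype apart, and with all 14 libraries in 1 fit for the difference between tissues. Fold changes come from these fits and CPM from TMM over all libraries, so the 2 can differ slightly. Standard errors are the fold change divided by the square root of F. Exon lengths, coordinates and overlaps are from the GENCODE annotation of GRCm38, and upstream sequences from RefSeq. Scripts were tested on simulated data.

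Every one of the 30 genes is described, and 1 gene of the other lists is not reported here. Alternatives were computed for those called, or for the 5 with the smallest p where fewer were called, and of other lists up to 4 genes with the smallest p are named, or those called where they are 5 or fewer. Alternatives were other scalings and filters, DESeq2 1.42.0, limma-voom (limma 3.58.1), a replicate block, 1 fit of all libraries, an atrial covariate, other lengths and leaving out each library. Deviations of same-numbered KO and WT libraries from their group means correlated by 0.246, 0.357, 0.359 and 0.268 in heart. In gWAT they correlated by −0.113, −0.225 and 0.0594. With 3 libraries in each group, these values cannot decide whether the numbers pair the gWAT samples. Libraries with different numbers were not compared. In heart the atrial markers split both genotypes by the same replicate numbers. The heart values therefore cannot tell pairing by number from that shared split.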

Additional observations from a re-analysis of the deposited data

Results flagged for a closer look

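Bckdhb in heart KO replicate 1 was at 36.1 CPM, apart from the other 3 KO hearts at 39.1 to 39.3 CPM. The gap was 0.945 of the group's range. Of 60 groups of 4 libraries examined, 1 met this criterion, and chance alone gives about 1 in 20.

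The KO effect differed between the tissues by an interaction test for 1 of the other pathway genes. For Slc7a5 the difference of gWAT minus heart was −1.575 on the log2 scale (edgeR adjusted p = 0.0218). The KO effect of Slc7a5 was −1.13 in gWAT and 0.44 in heart, where it did not pass.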

How the results depend on the processing

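Genes of the pathway called higher in gWAT KO numbered 2, and 8 with no filter beyond 1 count, with DESeq2 or in 1 fit of all 14 libraries. All genes called higher and lower were 305 and 529, and 585 and 1015 with no filter, 671 and 1098 with DESeq2 and 583 and 1142 in 1 fit. With a replicate block 0 were called, as were 0 of all genes, and whether its numbers pair the gWAT samples is not known. Leaving out each library gave 0 to 16 called higher, 0 to 0 lower and medians of 0.24 to 0.50. In heart the replicate block changed no call of these genes. The heart median was 0.0587 on library totals and 0.0914 with the atrial covariate, and −0.0292 to 0.0602 when libraries were left out, with 0 called in each. For the KO effect in gWAT minus heart, 1 gene, Ivd, was called higher on library totals, with DESeq2 or with a replicate block, and 2, Ivd and Dbt, with no filter. All genes called higher and lower were 58 and 126 in the main fit and 41 and 121 on library totals. They were 223 and 446 with DESeq2, 63 and 116 with a replicate block and 163 and 370 with no filter. Leaving out libraries gave 0 to 11 higher, 0 lower and medians of 0.15 to 0.49. For heart against gWAT in KO the median was −0.28 on library totals, 0.14 with no filter and 0.18 on totals without mitochondrially encoded genes. Leaving out libraries gave 13 to 16 higher, 10 to 12 lower and medians of 0.18 to 0.26. On library totals in KO, Auh was called lower in heart at −0.24 (edgeR adjusted p = 0.029), and Acad8 was at −0.14 and not called. In WT library totals gave 12 lower, a median of −0.16 and −0.11 for Acad8, and leaving out libraries gave 14 to 20 higher, 2 to 5 lower and medians of 0.30 to 0.61. The cause of these shifts was not tested. Over the longest transcript, the median level was 24.6 CPM per kb in heart WT and 22.3 in gWAT WT, against 19.6 and 15.1 over summed exons.

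Of single genes, 70 values of 5 genes were taken under an alternative in gWAT. Of these, 46 kept their direction and their call or lack of one, 12 lost and 12 gained the call, and 0 reversed. All lost calls were of Ivd and Ppm1k, the only genes of the 5 called in the main fit. For heart against gWAT, 14 of 416 values in KO lost the call and 2 reversed, and 2 of 272 in WT lost it and 1 reversed. When libraries were left out, Auh lost its call without gWAT KO replicate 3 or 4 and Acad8 without gWAT KO replicate 4 in KO, and Hibadh without gWAT WT replicate 4 in WT. With all libraries kept, Auh in KO also lost its call with no filter (edgeR adjusted p = 0.174) and in 1 fit of all 14 libraries (0.0821). Acad8 in KO lost its call with no filter, and Hsd17b10 in KO and Hibadh in WT on library totals. Low counts kept Bdh1 in gWAT and Bdh2 in heart out of the KO comparisons.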
